A study of Mus musculus with 12 samples.

Results

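Glucocorticoid-responsive genes were examined as a group of 10 symbols, ZBTB16, FKBP5, SGK1, TSC22D3, HIF3A, CDKN1A, SULT1A1 and PLIN4, with the 2 receptors NR3C1 and NR3C2, among 13645 gene symbols listed above and 12337 listed below a spinal cord contusion. The genes were chosen by name with earlier results of these data in view, ZBTB16 being among the genes with the largest decrease above the lesion, so the values that led to the choice are the group values given here and no test was made of them. All 10 genes were listed at both sites. The 12 libraries came from male mice that express human ApoE4 and were injured by contusion at thoracic vertebra 9 at 4 months of age, with tissue taken 14 days later just rostral (above) or caudal (below) to the epicenter. They form 4 groups of 3 libraries each, synj1+/+ above, synj1+/- above, synj1+/+ below and synj1+/- below, where synj1+/- mice are heterozygous for synj1, and every group carries human ApoE4 and the contusion and was given carprofen and Baytril after surgery. The study lists no sham animals for RNA sequencing, and ApoE3 libraries were not analysed here. A steroid treatment and the hour of collection are not given in the sources used here.

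Glucocorticoids act through a pair of nuclear receptors, the glucocorticoid receptor (NR3C1) and the mineralocorticoid receptor (NR3C2), which are held in the cytoplasm by heat shock protein complexes and move to the nucleus when hormone binds. There they bind inverted repeats in DNA and raise the transcription of a set of genes that is much the same in many tissues, FKBP5, TSC22D3, SGK1 and ZBTB16 among them, with PLIN4 and HIF3A known from brain. In nervous tissue these genes are used as a readout of stress hormone exposure, although CDKN1A and SGK1 also answer to other signals.

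The deposited table gives 1 value for each gene and group, read as FPKM plus 1, that is, fragments per unit of transcript length and library size after upper quartile normalization by the authors. Each value pools 3 libraries, so no SD, interval or test can be given, and depth per library cannot be read from the table. The log2 ratio used throughout is the log2 of the synj1+/- value over the synj1+/+ value of a site, as the groups are labelled, and a gene was counted as lower or higher at a log2 ratio of at least 0.5 in size, a 1.41-fold difference. Paired values are given with the group labelled synj1+/+ first and the group labelled synj1+/- second. SYNJ1, the gene that the genotype alters, ran against the labels, at 1905 and 2404 above the lesion and at 1847 and 2593 below. The methods state that genotypes were checked by PCR. All directions are those of the labels, and with labels exchanged every log2 ratio would keep its size and change its sign.

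Most of the hormone-induced genes were lower in the groups labelled synj1+/- at both sites, whereas both receptors were listed at nearly the same value in the 2 genotypes. Above the lesion 6 of the 10 genes were lower (ZBTB16, PLIN4, HIF3A, FKBP5, SGK1 and CDKN1A) and 0 were higher, where 2.87% of all listed genes were lower and 1.30% higher. Below the lesion 5 of the 10 were lower, the same genes except SGK1, and 0 were higher, where 5.74% of all listed genes were lower and 2.04% higher. These 5 genes were lower at both sites, as were 0.915% of the 12023 symbols listed once at each site. Because these genotype values led to the choice of the genes, nothing is read from the counts. The median log2 ratio of the 10 genes was -0.61 above and -0.54 below, and that of all listed genes was -0.00 and 0.01. The smallest difference counted was that of CDKN1A, at -0.58 above and -0.60 below, and the nearest gene not counted was SULT1A1, at -0.42 and -0.48.

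**Figure D1:**
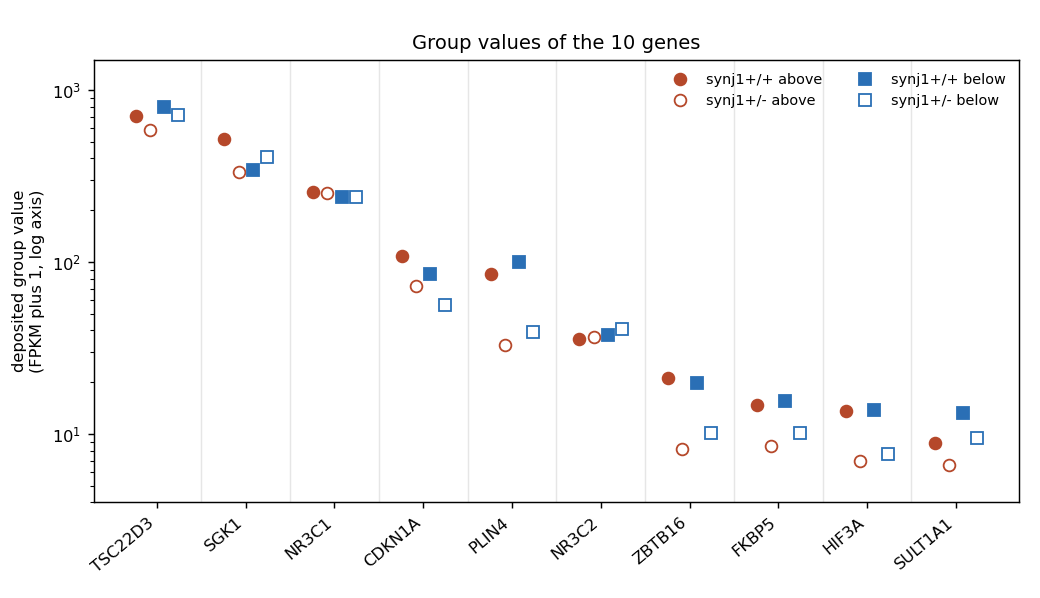
Deposited group value (FPKM plus 1, log axis) of the 10 genes in the 4 groups, 1 point per group of 3 libraries, circles above and squares below the lesion, filled for the groups labelled synj1+/+ and open for those labelled synj1+/-. The open points of ZBTB16, PLIN4, HIF3A and FKBP5 lie under the filled points at both sites, and the 4 points of NR3C1 and of NR3C2 lie close together.

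The genes cover a wide span of levels on this per-length scale. Above the lesion, in mice labelled synj1+/+, the order was TSC22D3, SGK1, NR3C1, CDKN1A, PLIN4, NR3C2, ZBTB16, FKBP5, HIF3A and SULT1A1, from 711 to 8.84. TSC22D3 had a higher value than 97.1% of the genes listed there, ZBTB16 than 35.4% and HIF3A than 25.8%. Without a spread between libraries it cannot be said which neighbours in this order differ.

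The receptors come first in the pathway. NR3C1, which carries most of the response at high hormone levels, was listed at 257 and 253 above the lesion and at 238 and 239 below. The log2 ratios were -0.02 and 0.01. NR3C2, which binds corticosterone with higher affinity, had values of 35.6 and 36.8 above and 37.7 and 40.6 below, with log2 ratios of 0.05 and 0.11. The 4 values of NR3C1 span 238 to 257 and those of NR3C2 span 35.6 to 40.6. Of the related steroid receptors, the progesterone receptor gene PGR had log2 ratios of -0.05 above and 0.32 below, and the estrogen receptor gene ESR1 had 0.08 and 0.30.

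ZBTB16 encodes PLZF, a transcription factor with a BTB domain and zinc fingers that is among the most strongly hormone-induced genes in many cell types. Its values were 21.1 and 8.20 above the lesion, and 19.7 and 10.1 below. The values of the groups labelled synj1+/+ were close at the 2 sites, and those of the groups labelled synj1+/- were 38.8% of them above and 51.2% below. The log2 ratio was -1.37 above, the 39th lowest of 13647 gene entries, and -0.97 below, the 174th lowest of 12338, places that would be counted from the highest if the labels were exchanged. Among the BTB zinc finger factors, 40 were listed above and 35 below, and ZBTB16 was the member counted as lower at each site, with 0 counted as higher, and 1 call in a list of this length is near the share over all genes. The others ranged from -0.39 to 0.28 above and from -0.34 to 0.31 below, BCL6 included, which is itself hormone-responsive (-0.36 and -0.03).

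PLIN4 encodes perilipin 4, a protein of the lipid droplet surface. It was listed at 84.7 and 32.9 above the lesion and at 101 and 39.0 below it. The value labelled synj1+/- was 38.8% of the other above and 38.7% below, a log2 ratio of -1.37 at each site. Of the other perilipins listed, PLIN2, which coats droplets in many cell types including phagocytes, had 95.7 and 73.3 above and 133 and 87.5 below, log2 ratios of -0.38 and -0.61. PLIN3 had log2 ratios of -0.11 and -0.20. The difference was larger in size for PLIN4 than for either relative at both sites, with no error on any of these values. PLIN4 was chosen with these genotype values in view and its relatives were not, so nothing is read from this order.

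HIF3A encodes a hypoxia-inducible factor subunit that acts in part as an inhibitor of the others. It was listed at 13.7 and 6.96 above the lesion and at 13.7 and 7.68 below it. The group labelled synj1+/+ had the same rounded value at both sites, and the log2 ratios were -0.97 and -0.84. The hypoxia-inducible subunits HIF1A and EPAS1 had log2 ratios of 0.06 and -0.05 above the lesion, where their partners ARNT and ARNT2 had -0.03 and 0.03. Below the lesion EPAS1 had -0.10 and ARNT -0.16.

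FKBP5 encodes FKBP51, a co-chaperone that the receptor induces and that in turn lowers the affinity of the receptor for hormone. It was listed at 14.7 and 8.47 above and at 15.5 and 10.2 below, log2 ratios of -0.80 and -0.61. Of the 12 FKBP immunophilins listed above the lesion FKBP5 was the 1 counted as lower, where 2.87% of all listed genes were. The other 11 ranged from -0.11 to 0.27. Below the lesion 5 of 12 were lower, FKBP7, FKBP10, FKBP5, FKBP9 and FKBP11, where 5.74% of all listed genes were. FKBP7 and FKBP10 had log2 ratios of -1.21 and -0.86 there. FKBP7, FKBP9, FKBP10 and FKBP11 are proteins of the endoplasmic reticulum, and FKBP10 folds collagen. FKBP4, whose product FKBP52 opposes FKBP51 in the receptor complex, had -0.11 above and 0.20 below.

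SGK1 encodes a serine/threonine kinase that is induced within a short time of hormone exposure. Its log2 ratio had opposite signs at the 2 sites, as did that of NR3C1, whose ratios were near 0. Its values were 519.6 and 335 above the lesion, and 344 and 409.8 below. The highest of the 4 values was the synj1+/+ one above the lesion, and the other 3 lay between 335 and 409.8. The log2 ratios were -0.63 and 0.25, a difference of 0.89 between the sites, and 1.89% of the symbols listed at both sites had a difference of at least that size in either direction (0.690% in the same direction as labelled). SGK1 was singled out for this difference, so the shares are a description. Its relatives differed as well above the lesion, SGK3 from 48.2 to 30.0 (log2 ratio -0.68) and SGK2 from 8.19 to 12.6 (0.62), and had -0.12 and 0.09 below.

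The SGK1 locus also held the clearest receptor motif near a start site. RefSeq windows of 250 bases before to 50 bases after each start (build GRCm38.p6) were available for 8 of the 10 genes, all but ZBTB16 and NR3C1. There were 16 windows because SGK1 has 6, TSC22D3 3 and CDKN1A 2, so a share of windows is not a share of genes. The motif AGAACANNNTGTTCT, a perfect inverted repeat of the receptor's binding sequence and the same on both strands, was present in 3 of 32851 windows of all genes (0.00913%), of which 1 belongs to SGK1. The window lies at chr10:21993640-21993939 on the plus strand, and the motif begins at position -189 from the start site. It is shown whole, with the motif in capitals.

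SGK1: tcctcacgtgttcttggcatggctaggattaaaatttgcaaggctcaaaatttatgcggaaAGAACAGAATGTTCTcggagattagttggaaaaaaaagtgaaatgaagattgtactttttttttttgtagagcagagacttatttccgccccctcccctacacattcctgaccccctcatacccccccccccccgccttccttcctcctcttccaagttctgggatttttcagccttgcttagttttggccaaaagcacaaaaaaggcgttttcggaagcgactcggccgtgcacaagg

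The looser core ACANNNTGT, which every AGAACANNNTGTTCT match also holds, was found in 6.85% of all windows and in 2 of the 16, both of SGK1. A single AGAACA on either strand, which the inverted repeat also holds, was found in 19.0% of all windows and in 5 of the 16, which belong to SGK1, SULT1A1 and TSC22D3. The SULT1A1 window lies at chr7:126676369-126676668 and the TSC22D3 window at chrX:140600473-140600772, both on the minus strand. For each gene the match nearest to the start is shown, because these are the other hormone-responsive genes with a match, with the matched letters of AGAACA or its reverse complement TGTTCT in capitals.

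SULT1A1: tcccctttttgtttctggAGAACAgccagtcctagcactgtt
TSC22D3: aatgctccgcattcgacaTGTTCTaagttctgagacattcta

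The SULT1A1 match begins at position -34 and the TSC22D3 match at position -185 from the start. The windows of PLIN4, HIF3A, FKBP5, CDKN1A and NR3C2 held none of the 3 motifs, which says only that these letters are not in these windows.

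TSC22D3 encodes GILZ, a leucine zipper protein that dampens inflammatory transcription. It was the most abundant of the 10 genes, at 711 and 588 above the lesion and at 794 and 715 below it. The log2 ratios, -0.27 and -0.15, were under the limit for counting, and other genes of its family were in the same range, TSC22D4 with -0.20 and -0.24 and TSC22D2 with -0.25 and -0.04. TSC22D1, listed above the lesion, had 0.07.

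CDKN1A encodes p21, an inhibitor of cyclin-dependent kinases that both the glucocorticoid receptor and p53 induce. It was listed at 108 and 72.2 above and at 84.8 and 56.2 below, log2 ratios of -0.58 and -0.60. The other CDK inhibitors listed ranged from -0.33 to 0.12 above and from -0.42 to 0.13 below. Of the p53 target genes listed, 0 of 10 above and 0 of 9 below were lower or higher, with medians of -0.00 and -0.05, and at the shares over all genes given above, counts of 0 in lists this short are near the background. The p53 targets ranged from -0.30 to 0.27 above and from -0.27 to 0.15 below. MDM2, the p53 target that limits p53 itself, had log2 ratios of -0.01 and -0.15.

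SULT1A1 encodes a sulfotransferase of phenols. It had the lowest value above the lesion, 8.84 and 6.62, and 13.2 and 9.45 below it. The log2 ratios of -0.42 and -0.48 were not counted, and both values were higher below the lesion than above it. SULT4A1, the brain-enriched member of the family, had 0.07 and 0.29.

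**Figure D2:**
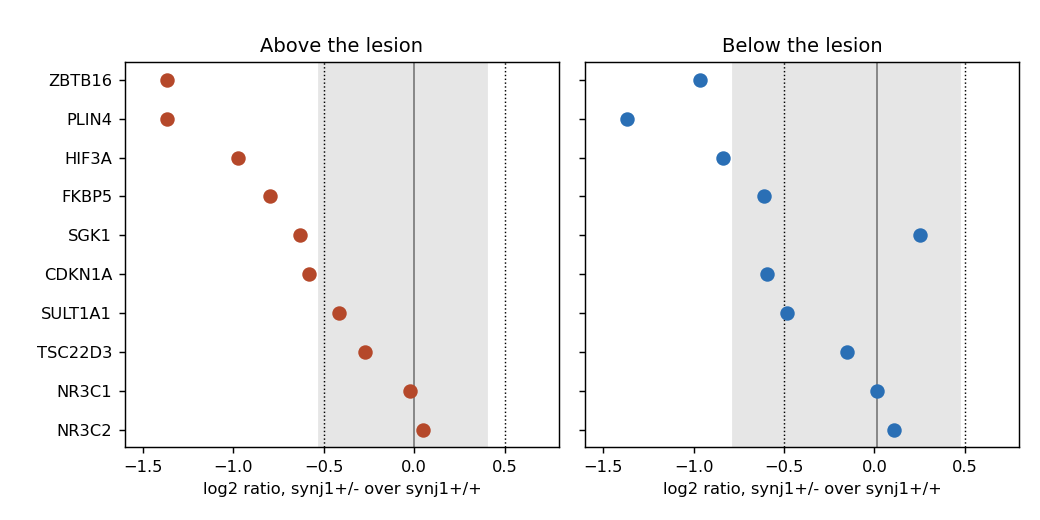
Genotype log2 ratio (synj1+/- over synj1+/+, as labelled) of the 10 genes above (left) and below (right) the lesion, 1 pooled value each, with the grey band spanning the central 95% of all listed genes at that site, a grey line at their median and dotted lines at the limit of 0.5. Above the lesion 6 points lie beyond the lower limit and outside the band, and below it 5 lie beyond the limit, of which ZBTB16, PLIN4 and HIF3A are outside the wider band.

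How often a gene passes the limit depends on its level. Among genes with a mean value under 20, the class of ZBTB16, FKBP5, HIF3A and SULT1A1, 5.59% were lower above the lesion and 9.52% below. From 20 to under 100, the class of PLIN4, CDKN1A and NR3C2, 1.81% and 4.32% were lower. From 100 up, the class of SGK1, TSC22D3 and NR3C1, 0.904% and 2.07% were lower. The central 95% of all log2 ratios ran from -0.53 to 0.40 above and from -0.78 to 0.47 below the lesion, so FKBP5 and CDKN1A were outside it above and inside it below.

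Levels at the 2 sites were normalized separately, and over all symbols the median log2 of below over above was -0.00 in the groups labelled synj1+/+ and 0.02 in those labelled synj1+/-. In the groups labelled synj1+/+, SGK1 had -0.60 and CDKN1A -0.35, and SULT1A1 had 0.58 and PLIN4 0.25. In the groups labelled synj1+/-, SGK1 had 0.29, CDKN1A -0.36, SULT1A1 0.51 and PLIN4 0.25. For SGK1, then, the order of the sites differed between the genotypes, and 1.19% of all symbols had a value as low or lower than that of SGK1 in the groups labelled synj1+/+. The genotype log2 ratio below minus that above was 0.40 for ZBTB16, 0.19 for FKBP5, 0.14 for HIF3A, 0.12 for TSC22D3 and within 0.07 of 0 for the other 5 genes apart from SGK1, with the middle 50% of all symbols between -0.14 and 0.17.

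**Figure D3:**
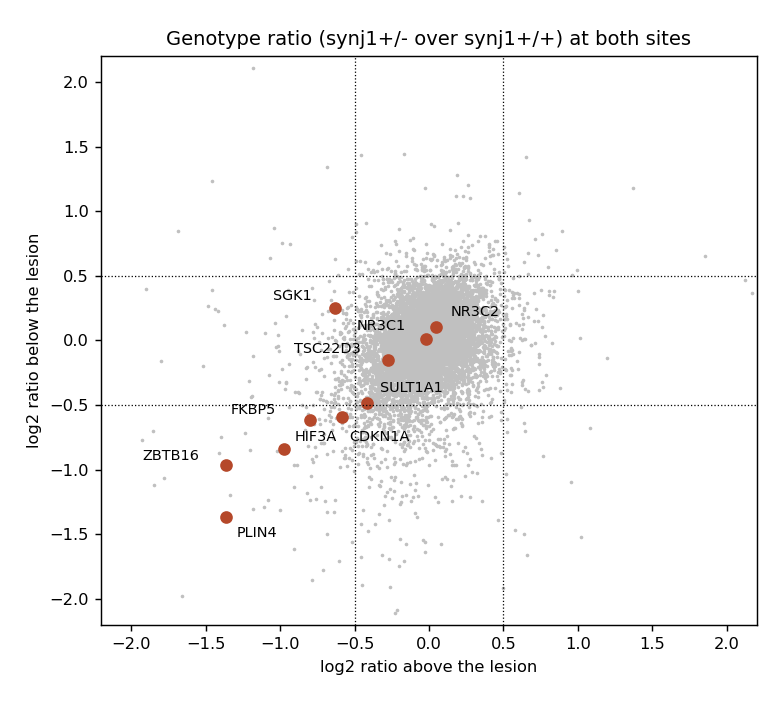
Genotype log2 ratio above (horizontal) and below (vertical) the lesion for symbols listed once at each site (grey), with the 10 genes in red and dotted lines at 0.5 in each direction; 20 symbols beyond the axis limits are not drawn. ZBTB16, PLIN4, HIF3A, FKBP5 and CDKN1A lie in the lower left corner, SGK1 to the left with a ratio above 0 below the lesion, and NR3C1 and NR3C2 near the origin.

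Other genes that glucocorticoids are known to induce were taken from a list of 36 symbols, of which 34 were listed above and 32 below the lesion. The list was chosen with earlier results of these data known, so nothing is read from its counts. Above the lesion 30 of 34 had a log2 ratio under 0, 5 were lower and 0 higher, with a median of -0.32. Of all genes listed there, 51.0% were under 0, 2.87% lower and 1.30% higher. The 5 lower genes of the list were MAP3K6, MFSD2A (a lipid transporter of brain endothelium), CEBPD (an acute-phase transcription factor), ARRDC2 (an arrestin domain protein) and KLF15 (a metabolic transcription factor), from -0.63 to -0.51. KLF15 had the highest values of these, 226 and 159. PER1, a clock gene that the receptor induces, had 85.4 and 67.1 (log2 ratio -0.35). DUSP1, a phosphatase of the same early response, had -0.25 above the lesion and -0.08 below. Above the lesion 4 genes of the list had a log2 ratio above 0, the highest at 0.23.

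Below the lesion 26 of 32 had a log2 ratio under 0, 6 were lower and 1 higher, with a median of -0.11. Of all genes listed there, 47.2% were under 0, 5.74% lower and 2.04% higher. The lower genes of the list were CEBPB, CRISPLD2, ANGPTL4, MT2, PDK4 and MT1, from -0.79 to -0.52. The metallothioneins MT1 and MT2, metal-binding proteins that hormone, metals and inflammation induce, had the highest values of these, 3178 and 2211 for MT1 and 1138 and 768 for MT2. The gene counted as higher was LCN2 (lipocalin 2), a product of reactive glia and neutrophils, with 21.3 and 46.4 (log2 ratio 1.12). Of the 32 genes, 0 were counted as lower at both sites, which is near the 0.915% of all symbols, so this count cannot show whether the sites differ. CEBPD, at -0.56 above and -0.49 below, and PDK4, at -0.49 and -0.53, lay on either side of the limit, and KLF15 and PER1 had 0.04 and 0.13 below. At both sites 24 of 32 had a log2 ratio under 0, where 3503 of 12023 symbols (29.1%) did. Mice may be shared between the sites, and the list was chosen with earlier results known, so nothing is read from this share.

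The machinery around the receptor was examined next. Of 18 receptor chaperones and cofactors listed above and 16 below, 0 were lower and 0 higher, with medians of 0.00 and 0.11. Set against the 2.87% lower and 1.30% higher over all genes above the lesion, and 5.74% and 2.04% below, counts of 0 in lists of this size are near the background. HSP90AB1, the chaperone that keeps the receptor able to bind hormone, had 705 and 678 above and 632 and 665 below. The widest differences were those of the coactivators EP300 and NCOA2 above the lesion, both -0.37. Of the steroid supply genes, HSD11B1, which regenerates active hormone inside cells, had 41.8 and 34.7 above (log2 ratio -0.27) and 47.9 and 50.7 below (0.08). ABCB1B, an efflux pump that carries corticosterone, was counted as lower above the lesion at -0.68 with the low values 5.20 and 3.24, and had 0.23 below.

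Markers of several cell types differed between the same groups. Over all listed genes, 2.87% were lower and 1.30% higher above the lesion, and 5.74% lower and 2.04% higher below it. Of the microglia and macrophage markers 4 of 10 listed above and 4 of 7 below were lower and 0 higher, and their summed value was 1759 and 1259 above and 1774 and 1169 below. Of the fibroblast markers 5 of 8 above and 6 of 7 below were lower, with sums of 338 and 247 above and 509 and 119.6 below. The erythrocyte markers were higher, 5 of 5 above and 1 of 5 below, with sums of 253 and 1138 above and 634 and 829.7 below. Astrocyte markers summed to 82.8% and 78.4%, oligodendrocyte markers to 95.9% and 94.6%, endothelial markers to 103% and 98.1%, pericyte and smooth muscle markers to 108% and 87.7% and neuron markers to 112% and 126% of the synj1+/+ group, above and below. The median log2 ratios of the same lists were -0.21 and -0.18 for astrocytes, -0.11 and 0.03 for oligodendrocytes and 0.14 and -0.14 for endothelium. For pericytes and smooth muscle they were 0.05 and -0.27, and for neurons 0.09 and 0.19. A sum follows its highest genes, and for oligodendrocytes below the lesion the sum was lower while the median was above 0. In these lists KDR above (0.54) and SYT1 below (0.54) were counted as higher, and CDH5 below (-0.61) as lower. Each sum covers the markers listed at its site, which differ between the sites for some lists, so sums are not compared between sites. FN1, a fibroblast marker with 230 and 159 above the lesion, was not listed below it. The neuron, astrocyte and oligodendrocyte markers with the highest values were SNAP25, from 5239 to 6929, GFAP, from 8485 to 12975, and MOBP, from 9724 to 10916 over the 4 groups. Other listed markers of these types had lower values, down to 22.2 for SOX9 in the group labelled synj1+/- below. MBP, MAG, CNP and SOX10 were not listed. In bulk tissue, fewer cells of a type and less RNA per cell cannot be told apart, and the part of these markers in the values of the 10 genes was not tested. Immediate-early genes, which handling and injury induce, had medians of -0.17 and -0.31, with 0 of 11 lower above and, below, 1 of 10 lower (EGR2, -1.25) and 1 higher (EGR3, 0.51).

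**Figure D4:**
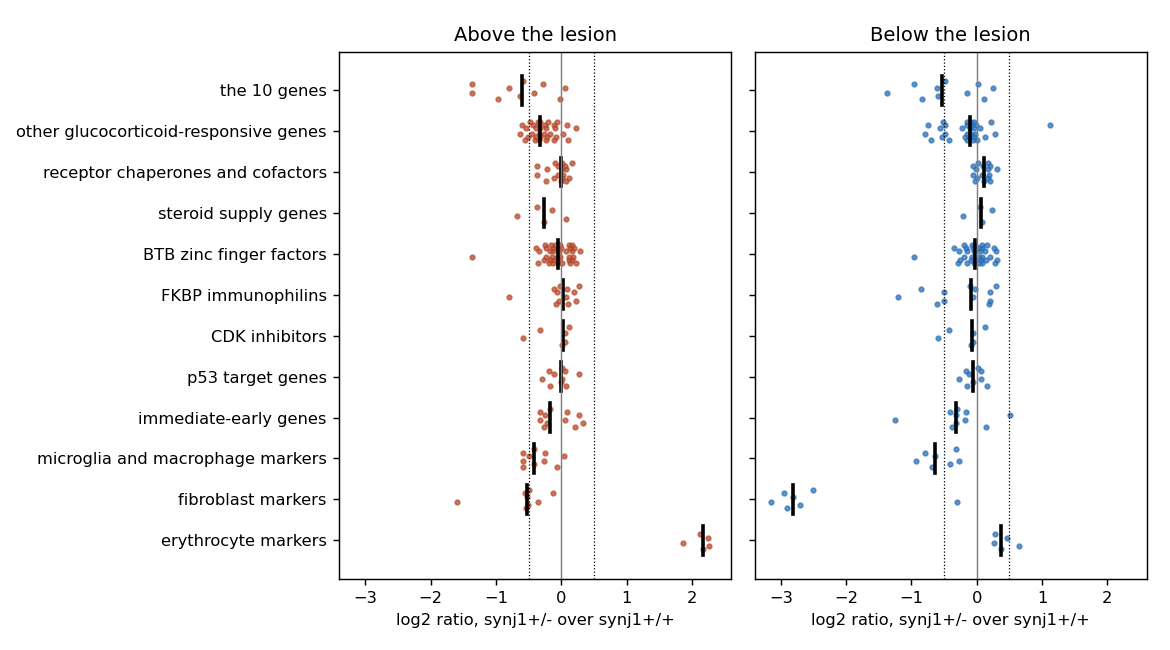
Genotype log2 ratio of each listed gene in 12 lists above (left) and below (right) the lesion, 1 point per gene with a black bar at the median of the list and dotted lines at 0.5 in each direction. The medians of the 10 genes are -0.61 and -0.54, those of the other glucocorticoid-responsive genes -0.32 and -0.11, and those of the receptor chaperones and cofactors 0.00 and 0.11, while fibroblast markers reach -3.14 below and erythrocyte markers 2.27 above the lesion.

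Likeness to ZBTB16 was measured as the Euclidean distance between the 4 log2 group values of a gene, each centred on the mean of the 4, over 9285 symbols with a value of at least 10 in every group. The nearest 5 were HIPK2 (a nuclear kinase), PLIN4, IKZF1 (a transcription factor of blood cells), KCNE1L (a potassium channel subunit) and LACC1 (an enzyme of macrophages), at distances from 0.27 to 0.49. HIPK2 had 102 and 43.2 above the lesion and 80.1 and 48.6 below it, log2 ratios of -1.24 and -0.72. HIF3A and FKBP5 have a value under 10 in at least 1 group, and without that limit they were the 2nd and 9th nearest, at 0.29 and 0.48. NR3C1 and NR3C2 were far down the same order, at 1.19 and 1.26. With 4 pooled values a gene, the order is a description. The distance uses the same group values that led to the choice of the 10 genes, so nothing is read from their places in it.

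The 10 genes lie on 7 chromosomes, with FKBP5 (17:28398753-28486149), CDKN1A (17:29090979-29100722) and PLIN4 (17:56100587-56109948) on chromosome 17, and ZBTB16 at 9:48651797-48836225, in the RefSeq annotation of GRCm38.p6. The gap between FKBP5 and CDKN1A is 605 kb, and none of the 10 lies on chromosome 16, where SYNJ1 is. The nearest listed gene on each side of each of the 10 gave 20 neighbours, of which 1 was lower above and 1 below, with medians of 0.04 and 0.05. Those counts are near the shares over all listed genes, 2.87% above and 5.74% below. The neighbours between FKBP5 and CDKN1A had log2 ratios near 0 above the lesion, LHFPL5 with 0.01 and STK38 with -0.00. SULT1A1 lies 86 bases from SGF29, whose log2 ratios were 0.09 and 0.16.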

How the data were processed

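The deposited values, per the labels and the methods of the study, came from TruSeq libraries, which do not mark strand, reduced at random by the authors to the smallest library of each site, aligned to GRCm38.p6 with STAR 2.5.4b and summarized with Cuffdiff 1.3.0 with upper quartile normalization. The authors pooled the 3 libraries of a group into 1 score per gene, taken to be FPKM plus 1 since no listed value is lower than 1, and there are 0 columns of single samples. The fold change, p-value and q-value columns, and a shorter list that holds nothing else, are the authors' own comparisons and were not used.

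Ratios were computed with Python 3.11.15, numpy 2.4.6 and pandas 2.3.3, plotted with matplotlib 3.10.9, and tested on simulated data. No test was run, and not every gene of the lists is reported here. The 10 genes and the gene lists were chosen with earlier results of these data known. Named were the 10 genes, their relatives, up to 6 genes past the limit per list and site, SYNJ1, and the 5 genes nearest to ZBTB16. The microglia and macrophage, fibroblast and erythrocyte markers are an exception. They are given as counts and sums, and of their genes past the limit only COL3A1 and FN1 are named. PER1, DUSP1, MDM2, HSP90AB1, HSD11B1, EP300, NCOA2, SNAP25, GFAP, MOBP and SOX9 and the neighbouring genes were chosen after their values were seen. Alternatives were another pseudocount, centring, a filter on low values, other limits and the mean.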

Additional observations from a re-analysis of the deposited data

Results flagged for a closer look

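SGK1 had a genotype log2 ratio of -0.63 above and 0.25 below the lesion, so the change below minus that above was 0.89. It was singled out because the groups labelled synj1+/- lay on opposite sides of those labelled synj1+/+ at the 2 sites. With 1 pooled value per group the difference was not tested.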

How the results depend on the processing

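With a limit of 1 in place of 0.5, the count of lower genes was 2 of 10 above the lesion (ZBTB16 and PLIN4) and 1 below (PLIN4). With a limit of 0.3 it was 7 and 6, SULT1A1 being added at both sites. Centring on the median of the site's genes with a mean value of at least 10, or a ratio of the value minus 1 plus 0.1, left 6 above and gave 6 below. A filter at a mean value of 10 left 6 and 5. The median log2 ratio ranged from -0.64 to -0.61 above and from -0.57 to -0.46 below over centring, the other pseudocount, the filter and the mean. The largest move of a single gene with the other pseudocount was 0.10, for ZBTB16 above the lesion. Results without each replicate could not be computed, since each value pools 3 libraries. No paired analysis was possible because the columns carry no single libraries. Low values limit ZBTB16, FKBP5, HIF3A and SULT1A1 most, as genes of their level pass the limit more often.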

Other observations

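PLIN4 and LRG1 (a secreted leucine-rich glycoprotein of the acute phase) lie 9730 bases apart on chromosome 17, and LRG1 was the neighbour counted as lower at both sites, with log2 ratios of -0.78 above and -0.91 below. UBXN6, on the other side of PLIN4, had -0.05 and 0.06. ARHGAP10, which follows NR3C2, had -0.48 and -0.47 and was not counted. These genes were named after their values were seen.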
